A study of Mus musculus with 4 samples.

Results

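The genes described here are 37 integrin chains, integrin activators and focal adhesion proteins, chosen by symbol from a fixed list. Each of the 37 symbols was found among the 32544 genes of the count tables. They were measured in nucleated bone marrow cells of 10-week-old mice with the 10x Genomics droplet method (kit version 3.1), which reads transcripts of single cells from their 3' ends. The 4 libraries form 2 groups of 2 by genotype label, wild type (WT) and YAP1 heterozygote, and no other allele, agent or control group is named. The cells were sorted by flow cytometry, and no source used here gives the gates. Whether the libraries of a group came from separate animals is not stated in the labels, so the p-values measure the spread between these libraries, which may be technical.

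Integrins are pairs of an alpha and a beta chain that tie a cell to matrix or to a neighbouring cell. The chain Itgb2 pairs with Itgal, Itgam, Itgax or Itgad in leukocytes, Itga4 pairs with Itgb1 or Itgb7, and the platelet fibrinogen receptor is the pair of Itga2b and Itgb3. The small GTPases of the Rap family, their effector Apbb1ip (RIAM), talin (Tln1) and the blood-cell kindlin (Fermt3) switch integrins to the ligand-binding state from inside the cell. Behind them, the complex of Ilk, Lims1 (PINCH) and the parvins, with its partner Rsu1, and the proteins vinculin (Vcl), zyxin (Zyx), paxillin (Pxn) and Tes link the pair to actin, while the kinases Ptk2, Ptk2b and Src and the adaptor Bcar1 carry the signal.

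After filtering and removal of doublets, 12360 and 11340 cells of WT replicates 1 and 2 and 10550 and 13244 cells of YAP1 heterozygote replicates 1 and 2 were kept, with a median of 5522.5 to 6734 UMIs (counted transcript molecules) per cell in a library. Clusters were named as "-like" classes from marker genes that hold none of the 37 genes, and the 37 genes were also left out of the genes used for clustering, so levels by class are readouts the classes did not use. Levels were described in the 18 classes with at least 100 cells. Cluster 15, led by Ace, Fabp4 and Apoe, took no class name from its markers. WT replicate 1 stood apart in its mature neutrophil-like clusters: it held 778 of the 848 cells of cluster 7 (led by Cxcl2, Acod1 and Il1f9), 1218 of the 2884 cells of cluster 0 and 367 of the 3101 cells of cluster 2. Erythroid progenitor-like cells were 1.14% and 3.84% of kept cells in WT replicates 1 and 2 and 2.17% and 3.45% in heterozygote replicates 1 and 2. Both replicates 1 thus lay below both replicates 2. Any pair of libraries shared 27 to 62 barcodes. Over all kept cells Yap1 itself was counted 6 and 7 times in WT and 0 and 6 times in heterozygote libraries, too few to check the genotype labels, and a 3' count does not separate alleles.

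Levels are given as CPM, the UMIs of a gene per 1000000 UMIs of its class in a library. A UMI counts a transcript once whatever its length, so CPM is not divided by length here, although the efficiency of capture may still differ between genes. Levels by class are descriptions without a test. Among the 37 genes, 9 had their highest mean level in megakaryocyte-like cells, more than in any other class, followed by 5 each in NK cell or ILC-like cells and in cluster 15. For 6 of the 9 (Itga6, Fermt3, Lims1, Src, Rap1b and Rsu1) the range over the 4 libraries lay wholly above that of the next class. The other 3 were Itga5, whose range overlapped that of monocyte-like cells, and Itgb4 and Parva, which rested on 125 and 10 UMIs over all cells. Between 8 and 10 members led in megakaryocyte-like cells when a library was left out, the members were kept among the clustering genes, clusters were cut finer, doublets were kept or means were taken over cells.

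**Figure D1:**
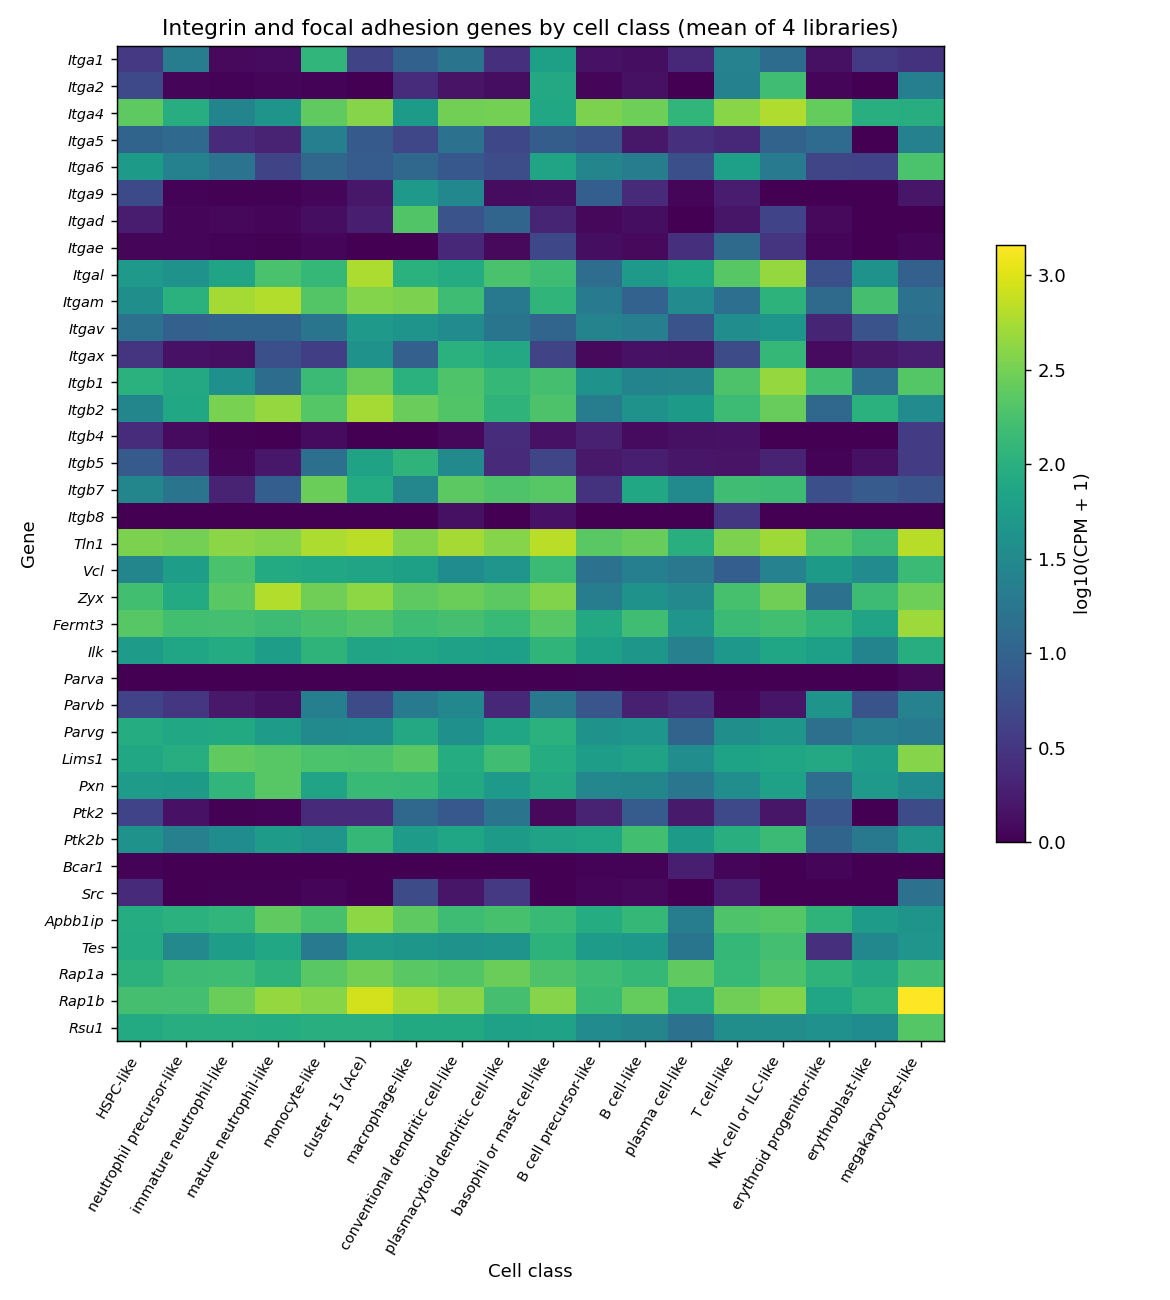
Mean level of each of the 37 genes (vertical axis) in the 18 cell classes (horizontal axis) over the 4 libraries, as log10(CPM + 1) by colour. Rap1b in megakaryocyte-like cells is the brightest field, Tln1 is bright in nearly every column, and Parva, Bcar1 and Itgb8 are dark throughout.

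The class with the highest Itgam level was the mature neutrophil-like one. Itgam, the alpha chain of the phagocyte receptor Mac-1, was at 617 and 627 CPM in the WT libraries and 645 and 569 CPM in the heterozygote libraries of these cells. The range overlapped that of immature neutrophil-like cells, which stood at 544 CPM on average. Itgb2, its partner, was at 434, 438, 489 and 444 CPM in mature neutrophil-like cells, in the same order of libraries. Its mean was higher in cluster 15, at 539 CPM, with library ranges that overlapped. Itgb2 made up 92.6% of the beta chain UMIs of mature neutrophil-like cells, with 91.4% to 93.5% over libraries. Along the order of precursor-like, immature and mature neutrophil-like cells, mean levels of Itgam were 105, 544 and 614 CPM and those of Itgb2 were 75.3, 330 and 451 CPM. Itgb1, the shared partner of many matrix-binding alpha chains, ran the other way, with 78.8, 37.1 and 12.2 CPM. The precursor-like class thus had Itgb1 and Itgb2 at similar shares of the beta chain UMIs (44.7% and 42.6%). By the neutrophil markers S100a8 and S100a9, mature neutrophil RNA could make up at most 19.6% to 21.3% of the UMIs of this class. At that limit it could carry 93.1 CPM of Itgb2 and 127 CPM of Itgam, more than the levels seen, and its part was not tested.

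Actin-linked members also differed along this series. Zyx, which gathers at mature adhesions, was at 84.5, 225 and 631 CPM in precursor-like, immature and mature cells, a 7.46-fold difference between the ends. Pxn, a scaffold for adhesion kinases, was at 51.2, 120 and 216 CPM and Itgal, the alpha chain of LFA-1, at 40.0, 69.8 and 177 CPM. At its upper limit neutrophil RNA could carry 130 CPM of Zyx, 44.5 CPM of Pxn and 36.4 CPM of Itgal in precursor-like cells. Vcl, which binds talin and actin, was highest in the middle, at 55.6, 178 and 84.1 CPM. Within mature neutrophil-like cells the clusters were unlike each other: the Il1b-led cluster 0 held 1022 CPM of Zyx, 315 CPM of Itgal and 203 CPM of Itga4, whereas the Mmp8-led cluster 8 held 399, 129 and 16.4 CPM. The order was opposite for Itgam, at 416 CPM in cluster 0 and 805 CPM in cluster 8, and for Lims1, at 57.8 and 336 CPM. In both clusters the 4 libraries lay on the same side for each of these 5 genes. Cells of cluster 0 were shallow. Cluster 8 had a higher mean marker z-score for immature (1.32) than for mature neutrophils (1.06) and was named by markers among its leading genes. The part of depth or of this mixed identity in these levels was not tested.

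The 4 alpha chains that pair with Itgb2 lie on the plus strand of chromosome 7 in GRCm38. They are Itgal (chr7:127296260-127335138), Itgam (chr7:128062640-128118491), Itgax (chr7:128129547-128150657) and Itgad (chr7:128154376-128223816). Despite this common neighbourhood their levels peaked in 4 different classes: Itgam in mature neutrophil-like cells, Itgal in cluster 15 at 595 CPM, Itgax at 128 CPM among NK cell or ILC-like cells and Itgad in macrophage-like cells at 197 CPM. Itgax, the CD11c chain used to mark dendritic cells, was close behind in conventional dendritic cell-like cells at 102 CPM, with library ranges that overlapped those of NK cell or ILC-like cells. It was at 4.90 CPM in mature neutrophil-like cells, where Itgam was at 614 CPM. Across the 18 classes, which share libraries and differ in depth, Spearman's rho with Itgb2 was 0.82 for Itgam, 0.77 for Itgal, 0.63 for Itgax and 0.38 for Itgad.

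The start regions of the neighbours Itgam and Itgax are shown because the genes adjoin and their levels differ most in neutrophil-like cells. Both come from RefSeq on GRCm38.p6, plus strand, and span 250 bases before to 50 bases after the annotated start (Itgam chr7:128062390-128062689, Itgax chr7:128129300-128129599). Capitals mark the letters GAGGAA on either strand, the core of the site that the myeloid factor PU.1 is known to bind:
Itgam: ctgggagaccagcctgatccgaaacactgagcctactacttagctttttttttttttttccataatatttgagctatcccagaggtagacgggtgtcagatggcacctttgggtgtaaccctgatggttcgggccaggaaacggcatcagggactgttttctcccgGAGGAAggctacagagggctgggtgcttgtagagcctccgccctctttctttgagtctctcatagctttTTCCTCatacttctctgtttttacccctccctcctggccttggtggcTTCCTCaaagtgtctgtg
Itgax: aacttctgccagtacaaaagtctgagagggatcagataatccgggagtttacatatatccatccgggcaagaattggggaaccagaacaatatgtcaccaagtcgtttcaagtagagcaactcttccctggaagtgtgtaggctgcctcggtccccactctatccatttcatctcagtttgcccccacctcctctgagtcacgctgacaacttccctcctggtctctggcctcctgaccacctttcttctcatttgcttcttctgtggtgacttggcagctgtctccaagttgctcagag
The Itgam window holds these letters 3 times, and the Itgax window holds none. Of the 37 members 26 matched a RefSeq window, with 31 windows in all, and 38.7% of those windows held GAGGAA against 28.3% of the 32817 windows of the table. A match of letters is a description and shows no binding.

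Itgad, an Itgb2 partner known from splenic macrophages, had the largest ratio of mean CPM between its highest and its next class among the members. It stood at 205 and 200 CPM in the WT libraries and 191 and 193 CPM in the heterozygote libraries of macrophage-like cells, 20.1 times the next class. That next class was the plasmacytoid dendritic cell-like one at 9.83 CPM, where an exon of Itgad overlaps the opposite-strand gene Cox6a2, itself a marker of those cells. Itgb5, which pairs with Itgav to bind vitronectin, was also highest in macrophage-like cells at 96.6, 156, 93.6 and 100 CPM and took 21.5% of their beta chain UMIs. Itga9, a receptor chain for tenascin and other matrix proteins, led there at 48.3 CPM but overlapped conventional dendritic cell-like cells. These macrophage-like cells were shallow and held neutrophil RNA, which by their neutrophil markers could make up at most 38.2% to 53.6% of the class's UMIs in a library. That RNA could carry 296 of the 346 CPM of Itgam in this class. Itgad was at 0.143 CPM in mature neutrophil-like cells.

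**Figure D2:**
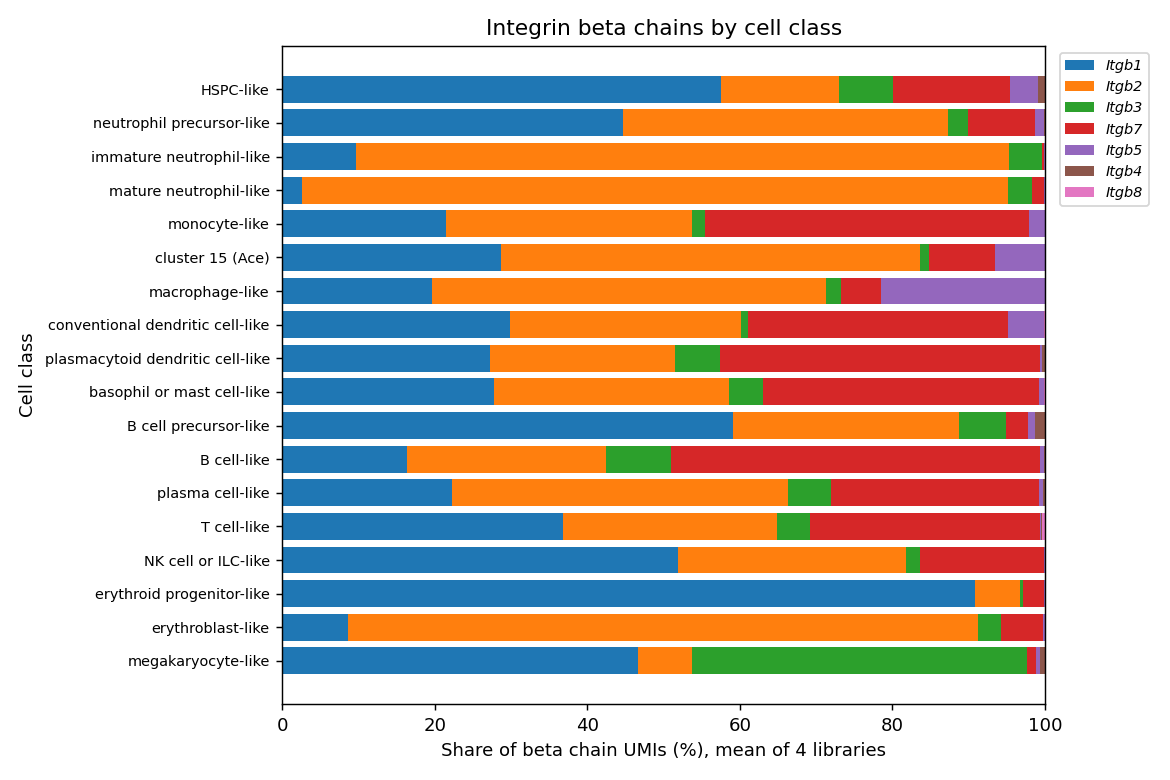
Share of each beta chain (colours) among the UMIs of the 7 beta chains measured, in percent on the horizontal axis, for the 18 classes on the vertical axis, as the mean of 4 libraries. Itgb2 fills 92.6% in mature neutrophil-like cells, Itgb1 fills 90.9% in erythroid progenitor-like cells, and Itgb3, which is no member, is large in megakaryocyte-like cells alone at 43.8%.

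Lymphoid and progenitor classes were set apart by the partners of Itga4, the chain that binds VCAM1 and MAdCAM1 in homing. Itga4 was broadly present, from 25.5 CPM in immature neutrophil-like cells to a highest class of NK cell or ILC-like cells at 633, 594, 631 and 568 CPM. Itgb7, its gut-homing partner, was at 1.88 CPM in B cell precursor-like cells and 76.1 CPM in B cell-like cells, while Itga4 was 339 and 287 CPM. Among B cell-like cells the Fcmr-led cluster 20 held 101 CPM of Itgb7 and the Ms4a1-led cluster 12 held 13.6 CPM, with no overlap of libraries. Itgb7 was 48.3% of the beta chain UMIs in B cell-like cells, 42.4% in monocyte-like cells and 41.9% in plasmacytoid dendritic cell-like cells. The largest mean level of Itgb7 was that of monocyte-like cells, at 277, 282, 291 and 262 CPM.

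Erythroid progenitor-like cells combined 254 CPM of Itga4 with 159 CPM of Itgb1, and Itgb1 took 90.9% of their beta chain UMIs. In the few erythroblast-like cells Itgb1 was 8.63% of these UMIs, with 82.6% from Itgb2, a chain that neutrophils carry. At its upper limit neutrophil RNA could carry 114 CPM of Itgb2 in this class, more than the 103 CPM seen, and its part was not tested. That class had 15 cells in WT replicate 1 and entered no test. NK cell or ILC-like cells held the highest levels of Itgb1 (460 CPM), Itga2 (156 CPM, a collagen-receptor chain known as CD49b and used to mark NK cells) and Itga4. Itga2 was also at 80.8 CPM in basophil or mast cell-like cells. Itga1, the other collagen-receptor chain, peaked in monocyte-like cells at 143, 108, 120 and 105 CPM and was at 1.88 CPM in megakaryocyte-like cells. Itgae, the chain of intraepithelial T cells, was highest in T cell-like cells, at 11.5 CPM from 186 UMIs in all classes.

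Cluster 15 had the highest mean level of 5 members, Itgal, Itgb2, Itgav, Apbb1ip and Rap1a. Library ranges overlapped those of mature neutrophil-like cells for Itgb2 and of plasmacytoid dendritic cell-like cells for Rap1a. Neutrophil RNA could make up at most 23.7% to 40.9% of the UMIs of cluster 15 in a library. It could carry 135 of the 539 CPM of Itgb2 and 52.8 of the 595 CPM of Itgal in cluster 15. Itgal was at 550, 672, 587 and 572 CPM there, above every library of NK cell or ILC-like cells (456 CPM on average), and Apbb1ip at 340, 476, 414 and 423 CPM was 1.68 times mature neutrophil-like cells. Itgav, a vitronectin-receptor chain, was low in every class, at 49.1 CPM in cluster 15, and overlapped NK cell or ILC-like cells at 44.6 CPM. Tes was highest in NK cell or ILC-like cells at 201, 160, 141 and 154 CPM, next to T cell-like cells at 126 CPM. Ptk2 peaked at 15.3 CPM in plasmacytoid dendritic cell-like cells, while Itgb8 and Bcar1 had 26 and 17 UMIs over all cells.

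Megakaryocyte-like cells numbered 74 to 121 per library, and in library order they were 0.93%, 1.07%, 0.70% and 0.85% of kept cells (WT replicates 1 and 2, then heterozygote replicates 1 and 2). The 12 megakaryocyte markers, which served to name the class, summed to 9553 to 12672 CPM in WT and 8833 to 11185 CPM in heterozygote libraries. Most of this was Pf4 at 7082 to 10256 CPM, while Gp6 was at 1.86 to 11.1 CPM. Detection alone does not set the class apart, since all 10 markers of the immature neutrophil, monocyte and B cell lists were also detected. The stem and progenitor (HSPC) list scored second in this cluster, with a mean marker z-score of 1.11 against 3.39 for megakaryocytes. Its 10 markers were all detected and summed to 750 to 876 CPM in a library. The part of progenitor-like cells in the levels below was not tested. The class had 1580425 to 2712094 UMIs per library. Megakaryocyte-like cells were 0.891% of all cells and held 2.01% of all UMIs. A gene at the mean level throughout would therefore have 2.01% of its UMIs in them. For Src that share was 61.9% (130 of 210 UMIs), for Itga6 18.5%, for Rap1b 9.91%, for Fermt3 6.41%, for Rsu1 5.28%, for Itgb1 5.24% and for Lims1 4.93%. At the other end Itgam had 0.106% and Itgal 0.182% of their UMIs there.

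The adhesion chains of megakaryocyte-like cells were mainly Itga2b, Itgb3, Itgb1 and Itga6. Itgb1 made up 46.6% and Itgb3 43.8% of their beta chain UMIs. The non-member Itga2b, the alpha chain of the fibrinogen receptor, was at 702, 732, 702 and 620 CPM, 2.23 times its level in basophil or mast cell-like cells. Itga6, a laminin-receptor chain, was nearly equal in the 4 libraries at 178, 185, 180 and 183 CPM, with 69.1 CPM in the next class. Itga4 was the next alpha chain, at 108, 80.7, 94.3 and 80.9 CPM. Itga2, the platelet collagen-receptor chain, was at 22.2 CPM and Itga5, the fibronectin-receptor chain, at 23.6 CPM, both far under Itga6 on the same UMI scale. Itgam stood at 14.1 CPM and Itgb2 at 32.5 CPM, of which neutrophil RNA at its upper limit could carry 11.1 and 8.11 CPM. No UMI of Itgad, Itgb8 or Bcar1 was seen among the 8677990 UMIs of the class, which allows a level of up to 0.346 CPM (3 counts, counting error only).

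The 3 most abundant members of megakaryocyte-like cells, Rap1b, Tln1 and Fermt3, were activators. Rap1b (chr10:117813871-117846035, minus strand), the Rap form known from platelets, reached 1427 and 1518 CPM in the WT and 1383 and 1440 CPM in the heterozygote libraries. Cluster 15 followed at 880 CPM. Its relative Rap1a was at 152 CPM in megakaryocyte-like cells and ranked only 9 of 18 classes there, so the pair of GTPases was unequal in this class on the UMI scale. Fermt3 (chr19:6998958-7019469, minus strand), whose loss causes bleeding with leukocyte adhesion deficiency, was at 509, 575, 437 and 474 CPM, 2.31 times the level of HSPC-like (stem and progenitor) cells. Tln1 was as high at 636, 693, 592 and 713 CPM, but basophil or mast cell-like cells (677 CPM) and cluster 15 (672 CPM) matched it within the spread of the libraries. Apbb1ip was low in megakaryocyte-like cells at 42.8 CPM, the class ranking 17 of 18, and highest in cluster 15 at 413 CPM.

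In the complex behind the integrin tail, Lims1 (358, 450, 366 and 371 CPM) and Rsu1 (170, 230, 202 and 237 CPM) were highest in megakaryocyte-like cells. Rsu1, which binds PINCH, was 2.15 times the level of monocyte-like cells. Ilk, the pseudokinase at the centre of the complex, was at 92.2, 110, 66.4 and 96.5 CPM and did not stand out from basophil or mast cell-like and monocyte-like cells. The parvins were divided by class: Parvb was at 24.1 CPM in megakaryocyte-like cells and 42.3 CPM in erythroid progenitor-like cells, Parvg was at 19.0 CPM against 102 CPM in basophil or mast cell-like cells, and Parva was nearly undetected with 10 UMIs in all classes. Src (chr2:157418444-157471862, plus strand) was at 15.8, 18.1, 13.3 and 11.6 CPM, 3.45 times the next class. The focal adhesion kinase Ptk2 was at 4.32 CPM, whereas its relative Ptk2b was at 41.6 CPM and peaked in B cell-like cells at 157 CPM. Vcl was at 131, 159, 130 and 144 CPM, equal in mean to basophil or mast cell-like cells and under immature neutrophil-like cells.

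The start region of Vcl is shown because it and Rsu1 are the 2 members whose window held a CArG box, the site of the actin-responsive serum response factor, in 2 of the 31 member windows (6.45%) against 1.63% of all windows. It is from RefSeq on GRCm38.p6, plus strand (chr14:20929148-20929447), searched on both strands with the CArG box in capitals:
Vcl: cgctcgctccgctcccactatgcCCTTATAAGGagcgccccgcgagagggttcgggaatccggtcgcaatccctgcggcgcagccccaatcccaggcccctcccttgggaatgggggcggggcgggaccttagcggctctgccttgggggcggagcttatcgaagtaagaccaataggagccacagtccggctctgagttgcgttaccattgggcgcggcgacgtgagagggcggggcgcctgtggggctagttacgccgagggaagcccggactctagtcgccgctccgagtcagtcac
The box lies upstream of the annotated start. The GATA letters AGATAA were in 9.68% of member windows and 11.2% of all windows, and the ETS letters CCGGAA in 19.4% and 14.9%.

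WT and YAP1 heterozygote libraries were compared with edgeR's quasi-likelihood test on UMIs summed per library and class, over all genes of a class, with Benjamini-Hochberg adjustment. In megakaryocyte-like cells 27 members passed the filter on low counts, and 0 were called, beside 0% of the 9689 genes tested. DESeq2 and a fit with the replicate number as a block also called 0 members there, and 0 of the 27 had an unadjusted p under 0.05, beside 2.34% of all genes. The 27 log2 fold changes (heterozygote minus WT) had a median of -0.05 against -0.00448 over all genes. They were negative for 21 and positive for 6 members. In 4 members (Fermt3, Zyx, Itgb1 and Src) both heterozygote libraries lay below both WT libraries and in 0 above, where 29.3% of all genes had groups that did not overlap. Markers of immature neutrophils, 10 of 10 detected, summed to 699 to 4290 CPM in the WT and 569 to 2175 CPM in the heterozygote libraries of this class. Basophil or mast cell markers, also 10 of 10 detected, summed to 359 to 367 CPM in WT and 242 to 279 CPM in heterozygote libraries. That sum and the low eosinophil sum (2.58 to 2.79 against 1.79 to 1.90 CPM) were lower without overlap. The sums of the other marker lists overlapped between groups. The part of any list in the differences of the members was not tested.

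Fermt3 had the lowest p of the 27. Its level was 509 and 575 CPM in WT and 437 and 474 CPM in heterozygote libraries, with a log2 fold change of -0.24 and an SE of 0.139 (adjusted p = 0.999 by edgeR). Src was at 15.8 and 18.1 CPM against 13.3 and 11.6 CPM (log2 fold change -0.45, SE 0.288), and Zyx at 304 and 306 CPM against 259 and 283 CPM (-0.16, SE 0.130). Ilk was at 92.2 and 110 CPM against 66.4 and 96.5 CPM (-0.29, SE 0.191), so its groups overlapped. Of its 17 classes, Fermt3 was without overlap above WT in 4 others and below it in megakaryocyte-like cells alone. Of all gene and class pairs 32.2% had groups that did not overlap in either direction. The difference between classes was not tested. The other 6 of the 8 most abundant members had log2 fold changes closer to 0 than Fermt3 and Zyx: Rap1b -0.05 (SE 0.120), Tln1 -0.01 (SE 0.144), Lims1 -0.13 (SE 0.148), Itgb1 -0.12 (SE 0.127), Rsu1 0.14 (SE 0.163) and Itga6 0.01 (SE 0.128). None of these passed the test, and edgeR's adjusted p was 0.999 for all 27, which does not show that the groups are equal.

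**Figure D3:**
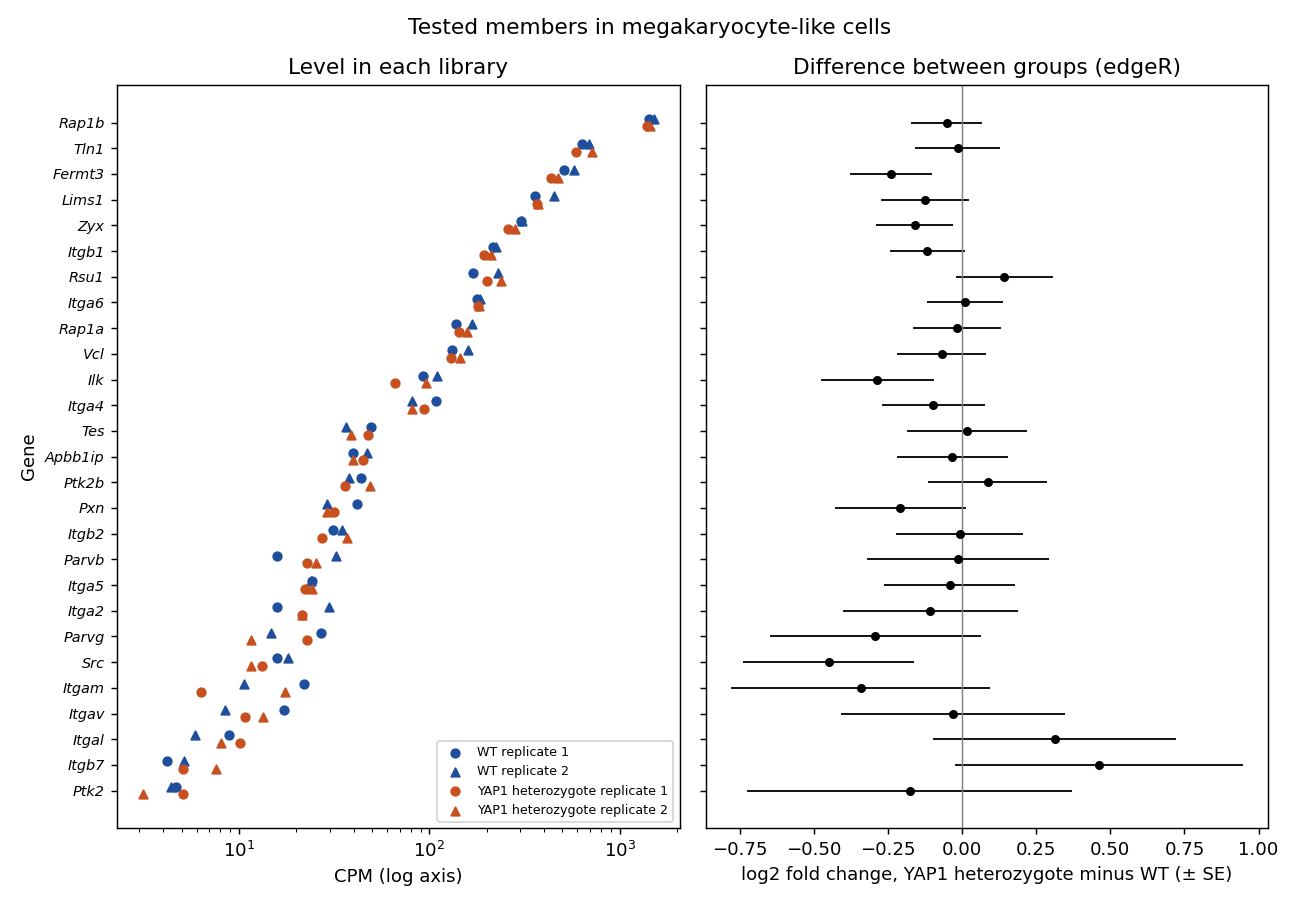
The 27 tested members in megakaryocyte-like cells, ordered by level on the vertical axis. The left panel gives CPM in each of the 4 libraries on a log axis (blue WT, orange YAP1 heterozygote, circle replicate 1, triangle replicate 2), and the right panel gives the log2 fold change with its SE, which is negative for 21 genes.

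Genes around the members, from lists of partners, gave a like picture. Of 44 activation and signalling partners 35 were tested in megakaryocyte-like cells, with 12 higher, 23 lower and a median log2 fold change of -0.06, and 0 were called. Of 21 ligands and surface partners 13 were tested, 7 higher and 6 lower, with a median of 0.05 and 0 called. The 2 tested chains outside the members were Itga2b (-0.11, SE 0.132) and Itgb3 (-0.19, SE 0.178), neither called. In the 17 classes tested edgeR called 0 genes of these lists, and DESeq2 called 4, beside 53 and 199 calls over all genes.

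Over the 17 classes with at least 20 cells in every library, 33 members were tested in 422 pairs of member and class. The other 4 members, Itgb4, Itgb8, Parva and Bcar1, passed the count filter in none of the classes. edgeR called 0 of them, DESeq2 0 and the blocked fit 0, beside 0.0346% of all 153181 gene and class pairs. Those 53 calls (15 higher and 38 lower in heterozygote cells) lay in 8 classes. An unadjusted p under 0.05 was seen in 17 member pairs, or 4.03%, beside 4.65% of all pairs.

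Vcl in macrophage-like cells had the lowest adjusted p of these 422 pairs. It was at 36.2 and 34.8 CPM in WT and 93.6 and 81.7 CPM in heterozygote libraries, with a log2 fold change of 1.32 and an SE of 0.420 (adjusted p = 0.491 by edgeR). Those levels rested on 6 and 4 UMIs in WT and 28 and 49 in heterozygote libraries. RNA of mature neutrophil-like cells could carry 28.5 to 55.8 CPM of Vcl in a library of this class. Immature neutrophil-like cells had 103% to 109% of the mature level of S100a8 and S100a9, but 178 CPM of Vcl against 84.1 CPM. Their RNA could thus carry more than that range. Neutrophil RNA was present in all 4 libraries, and its part in the difference was not tested. In NK cell or ILC-like cells Vcl lay the other way, at 41.5 and 29.7 CPM in WT (26 and 15 UMIs) and 4.34 and 20.3 CPM in heterozygote libraries (2 and 10 UMIs), a log2 fold change of -1.52 with an SE of 0.552 (adjusted p = 0.821 by edgeR). The difference between these classes was not tested. In the same cells Parvg was at 41.5 and 23.8 CPM in WT and 56.4 and 60.9 CPM in heterozygote libraries (log2 fold change 0.80, SE 0.334, adjusted p = 0.890 by edgeR).

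Rap1b was lower in heterozygote libraries in 14 of the 17 classes and both heterozygote libraries were below both WT libraries in 9. Of all gene and class pairs 32.2% had groups that did not overlap in either direction, and the classes share their 4 libraries, so they are not independent. Its lowest value was in basophil or mast cell-like cells, at 485 and 373 CPM in WT and 327 and 337 CPM in heterozygote libraries (log2 fold change -0.47, SE 0.165, adjusted p = 0.670 by edgeR). It was -0.21 (SE 0.133) in T cell-like, -0.16 (SE 0.115) in B cell precursor-like and -0.15 (SE 0.0907) in monocyte-like cells. Tes, which binds zyxin at adhesions, was also lower in 14 classes and without overlap in 7. In mature neutrophil-like cells it was at 86.2 and 83.4 CPM against 71.6 and 70.0 CPM (-0.24, SE 0.121), and -0.19 without cluster 7, the cluster mostly of WT replicate 1. The log2 fold changes of Tes were -0.58 (SE 0.251) in cluster 15 and -0.14 (SE 0.0723) in immature neutrophil-like cells. Rsu1 was higher in 16 of 17 classes, with no overlap in 3 and a median log2 fold change of 0.14. None of these passed the test in any class.

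**Figure D4:**
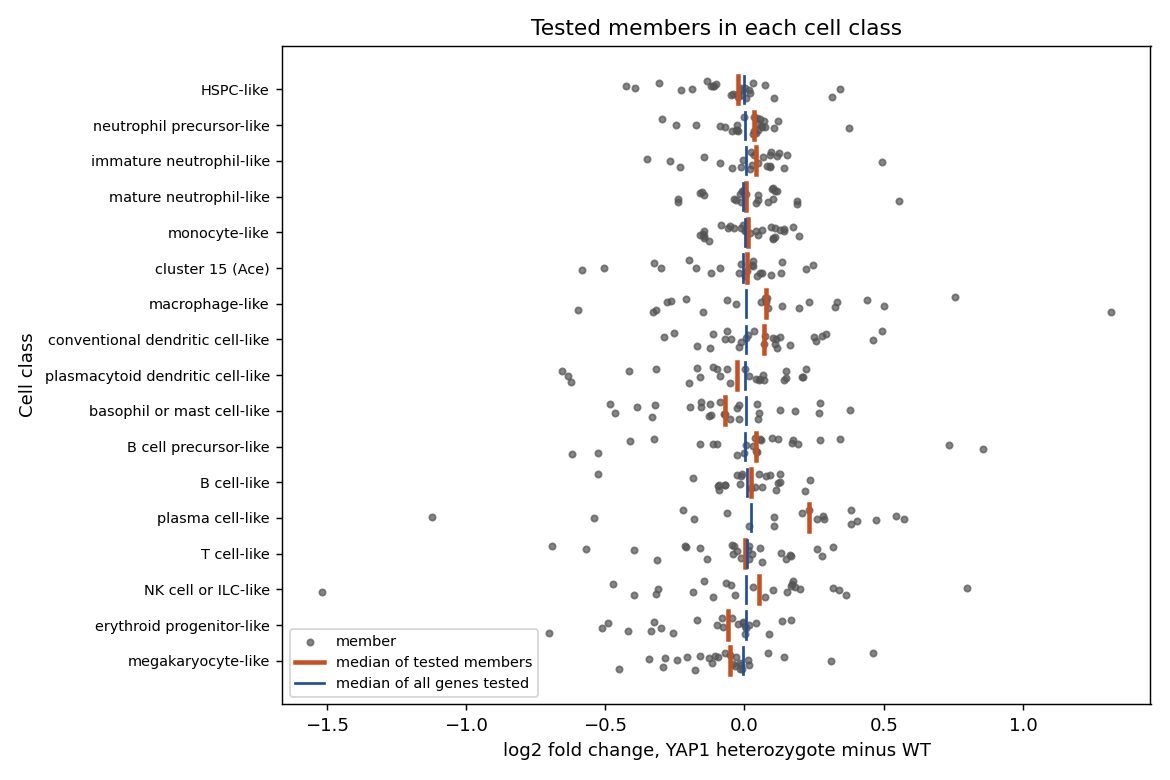
Log2 fold change (heterozygote minus WT, horizontal axis) of each tested member, as a grey point, in the 17 classes on the vertical axis, with the median of the tested members (orange) and of all genes tested (blue). The member medians run from -0.07 in basophil or mast cell-like to 0.23 in plasma cell-like cells, and no point was called.

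Apbb1ip had the lowest p of the non-overlapping, well-counted members in 3 classes, with log2 fold changes of 0.31 (SE 0.136) in HSPC-like, 0.13 (SE 0.123) in B cell-like and 0.12 (SE 0.0681) in neutrophil precursor-like cells. Its HSPC-like levels were 79.4 and 75.8 CPM in WT and 95.2 and 103 CPM in heterozygote libraries, without overlap (edgeR adjusted p = 0.999). Itgal was at 0.28 (SE 0.177) in conventional dendritic cell-like and 0.57 (SE 0.260) in plasma cell-like cells, and Lims1 at 0.09 (SE 0.0964) in erythroid progenitor-like cells. Pxn in plasmacytoid dendritic cell-like cells was at 63.6 and 49.0 CPM in WT and 39.2 and 44.7 CPM in heterozygote libraries (-0.41, SE 0.173, adjusted p = 0.778 by edgeR). Without WT replicate 2 its adjusted p was 0.0447, in a fit that called 384 genes of the class where 0 were called with all libraries.

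With all cells of a library summed, 34 members were tested and 0 were called by edgeR, by DESeq2 (which gave Src and Itgad no adjusted p) or with the block, beside 0% of 15576 genes. In 5 members the heterozygote libraries were above and in 5 below the WT libraries without overlap, beside 26.2% of all genes. The 4 with the lowest p were Src (log2 fold change -0.52, SE 0.255), Itgb5 (0.29, SE 0.145), Itgad (0.55, SE 0.292) and Apbb1ip (0.12, SE 0.0683). In such sums fewer cells of a type and less RNA per cell cannot be told apart. Megakaryocyte-like cells, with 130 of the 210 UMIs of Src, were 0.93% and 1.07% of WT and 0.70% and 0.85% of heterozygote cells. Within these cells Src was also lower in heterozygote libraries without overlap (log2 fold change -0.45), and it was not called. Macrophage-like cells held 230 of the 459 UMIs of Itgad and 122 of the 1559 of Itgb5, while monocyte-like cells held 674 of Itgb5. The macrophage-like class was 0.53% and 0.45% of WT and 0.91% and 1.32% of heterozygote cells, and within it Itgad was at 205 and 200 against 191 and 193 CPM.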

How the data were processed

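The authors deposited, for each of 4 libraries, whole-number UMI counts per gene and barcode, not normalized. Cell Ranger 5.0.0 wrote them per the file headers; the submitters' processing notes instead name version 3.0.0 of it, with Seurat 4.3.0 and GRCm38. Deposited totals were 112806900 to 119855112 UMIs per library. Barcodes under 500 UMIs, under 200 genes or above 10% mitochondrial UMIs were dropped. Scrublet (scanpy 1.11.5) marked 3.61% to 4.85% of a library as doublets, which were removed. Leiden clusters (resolution 1.0) came from 2000 variable genes, 30 components and 15 neighbours, without integration, and were named from marker lists. Sums of UMIs by library and class were tested with edgeR 4.0.16 (R 4.3.3, filterByExpr, TMM, threshold 0.05), with DESeq2 1.42.0 beside it, and the test was checked on simulated counts. Gene positions are from GENCODE M21. Exons of Tln1, Zyx, Fermt3, Ilk, Vcl, Itga4, Itgav, Itgad and Tes overlap a gene on the other strand, and those of Itgam and Itga1 a gene model on the same strand. The members and lists were chosen with earlier results of these data known. Named fold changes were, by rule, those of the 8 most abundant members and the 4 of lowest p in megakaryocyte-like cells, the 4 of lowest p over all cells, and per other class the member of lowest p among those of average log2 CPM 5 or more whose groups did not overlap. Other directions over classes were chosen after their values were seen.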

Additional observations from a re-analysis of the deposited data

How the results depend on the processing

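With 2 libraries per group, the SE of a member's log2 fold change in megakaryocyte-like cells ran from 0.120 (Rap1b) to 0.547 (Ptk2). Calls over all genes went from 53 to 2500 when WT replicate 2 was left out. Members called in the 17 classes numbered 0 under DESeq2, RLE size factors, no count filter, the replicate block, other clusterings and removal of each gene's top cell, and 0 to 4 when a library was left out. With a library left out, the lone library of its group was assumed to vary like the other group. The 4 came without WT replicate 2: Itgav in T cell-like (log2 fold change -1.04, edgeR adjusted p = 0.0163), Itga9 in conventional dendritic cell-like (2.20, 0.00424), Itga1 in neutrophil precursor-like (-0.52, 0.0403) and Pxn in plasmacytoid dendritic cell-like cells (-0.60, 0.0447). In those fits 126 to 384 genes of the class were called, and the cause was not tested. Genes of the partner lists numbered 0 of the 53 calls over all genes in the main setting and 4 of 199 with DESeq2. They were 24 of 1557 with no filter, 15 of 1439 with the replicate block, 1 of 53 at Leiden resolution 2.0 and 2 of 91 without the top cell. The number also moved when a library was left out. Whether list genes were more frequent among the calls than other genes was not tested.

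Of 30 named fold changes 25 kept their direction under every alternative tried. The other 5 are small values in megakaryocyte-like cells that changed sign when a library was left out. Rap1b then ranged from -0.11 to 0.0217 (without WT replicate 2), Tln1 from -0.16 to 0.12 (above 0 without WT replicate 2, at 0.08, and without YAP1 heterozygote replicate 1), Lims1 from -0.30 to 0.0796 (without WT replicate 2), Rsu1 from -0.0701 (without WT replicate 1) to 0.41 and Itga6 from -0.0322 (without WT replicate 1) to 0.0666, with -0.00873 without YAP1 heterozygote replicate 2. With members among the clustering genes Tln1 was 0.00547 and Itga6 -0.0206, and without the top cell 0.00706 and -0.00175. Leaving out cluster 7 from mature neutrophil-like cells, chosen after seeing the data, gave 0 members called. In sums of all kept cells, where the shares of cell types enter, deviations from the group mean were correlated over genes between groups. The correlation was 0.49 for same-numbered libraries and -0.49 for the other pairing. With 2 libraries per group these values are opposite by construction, so a positive value in either pairing was bound to arise. With 2 pairs the libraries share only a number, and the replicate block called 1439 genes in all classes against 53 without it.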
